A study of Mus musculus with 2 samples.

Results

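The genes examined were the histone genes of the mouse testis, taken by symbol: all names that begin with Hist1h to Hist4h, H1f, H2af, H2al, H2bf or H3f, and Hils1. The symbol list of the series held 90 such names among 25065 lines, and 25 of the 90 could be tied to 1 row of the count matrix. These 25 are the members described below. They were followed over the 13 germ cell clusters named by the authors (Sg, Sc1, Sc2 and Sd1 to Sd10) in 1 wild-type (WT) and 1 Tex13a-KO library. Both libraries came from adult mice, of strain C57BL/6 per the labels and C57BL/6N per the study's methods, and in the KO mice every exon of the X-linked gene Tex13a had been removed with CRISPR-Cas9. Testes of several mice per genotype were pooled, whole testes were dissociated with collagenase I, and poly(A) RNA of single cells was captured on barcoded beads in microwells. Each genotype was thus 1 library, and KO against WT has no replicate check: effects of the genotype and of the library cannot be told apart. No test or p-value is given. The row of Tex13a itself could not be told from its neighbours in the matrix, so the genotype labels were not checked on that gene here.

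Histones wrap DNA into nucleosomes, and linker histones bind the DNA between them. The replication-dependent genes of the Hist clusters supply core histones in S phase, and their mRNAs usually end in a short stem-loop instead of a poly(A) tail. Replacement histones such as those of H3f3a, H3f3b, H2afv, H2afx, H2afy and H1fx are made from polyadenylated mRNAs outside S phase as well. In spermatids, testis-specific linker histones and short H2A variants appear while most nucleosomes are removed and the DNA is packed with transition proteins and then protamines.

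The WT library held 5170 cells with 45568532 UMIs (unique molecular identifiers, 1 per captured RNA molecule) and the KO library 7238 cells with 67734689 UMIs. Levels are the sums of a gene's UMIs over the cells of a cluster in 1 library per 1000000 UMIs (CPM), with exact Poisson 95% intervals in brackets that cover counting error only. The members took up 560475 UMIs, which is 0.495% of all, and between 0.118% (Sd1_KO) and 0.960% (Sd6_WT) of a cluster. In both libraries, spermatocyte genes Sycp1 and Sycp3 were highest in Sc1 and the meiotic-end genes Ccna1 and Aurka in Sd1. The round spermatid gene Acrv1 was highest in Sd4 and the protamine gene Prm2 in Sd10, in both libraries. Summed, the 5 spermatocyte genes that could be placed were highest in Sc1. The 2 meiotic-end genes summed highest in Sd1 and the 3 round spermatid genes in Sd4. The 8 elongating spermatid genes, Prm2 among them, summed highest in Sd8, at 301570 CPM in WT and 296180 in KO. In Sd10 this sum was 194997 and 185481 CPM. Of the spermatogonial genes that could be placed, Kit and Uchl1 were highest in Sg, whereas Stra8 peaked in Sc1. Of the markers of other cells that could be placed, Cyp17a1 of Leydig cells, Myh11 and Cnn1 of myoid cells and Cd68 of macrophages summed to between 18 and 168 UMIs per library over all clusters. Of the 7 listed Sertoli cell genes and the 3 listed endothelial genes, 0 could be placed, so these cells were not checked. The haemoglobin genes Hba-a1 and Hbb-bs of red blood cells were higher and uneven: with Cd68 they summed to 615 CPM in Sd8_KO against 6.00 in Sd8_WT, to 437 in Sd9_WT against 9.01 in Sd9_KO, and to 182 in Sc2_WT against 95.7 in Sc2_KO. Their part in the ratios of KO to WT given below was not tested.

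The ends of the members' mRNAs are shown first, because the libraries were primed on poly(A) and the replication-type genes differed in whether their annotated ends held a stem-loop, a poly(A) signal or both. The sequences and positions were read from the GENCODE vM21 transcripts of GRCm38. The letters of the histone mRNA 3′ stem-loop were searched on both strands. They occurred on the transcript strand in the longest transcript of 0.210% of 21901 coding genes and on the other strand in 0.0228%. Of the 24 coding members, 9 had them after the stop codon, in the 3′ UTR of a transcript with 1 exon. This counts any coding transcript of a member, and in the longest coding transcript 8 had them. Each line gives the sense strand 5′ to 3′, with the stem-loop letters in capitals:
Hist1h4c: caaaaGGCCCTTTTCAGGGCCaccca
Hist1h1e: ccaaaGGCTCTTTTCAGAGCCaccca
Hist1h2ae: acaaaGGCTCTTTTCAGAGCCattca
Hist1h2ab: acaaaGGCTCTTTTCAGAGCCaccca
Hist1h2bj: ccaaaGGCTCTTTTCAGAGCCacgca
Hist1h3c: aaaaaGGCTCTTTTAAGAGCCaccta
Hist1h3a: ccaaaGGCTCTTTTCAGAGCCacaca
H2afx: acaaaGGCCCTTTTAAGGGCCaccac
Hist1h2bp (unspliced transcript): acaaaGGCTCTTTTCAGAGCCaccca

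These letters lie at chr13:23698089-23698104, chr13:23621782-23621797, chr13:23570668-23570683, chr13:23745047-23745062 and chr13:23761890-23761905 on the minus strand. On the plus strand they lie at chr13:23751572-23751587, chr13:22043638-22043653, chr13:21787923-21787938 and chr9:44335240-44335255. The poly(A) signal AATAAA was searched in the last 50 bases, where 59.2% of the coding genes had it on the transcript strand and 7.10% on the other. These shares rest on the longest transcript of each gene. For the members any coding transcript was counted, and the signal stood in the last 50 bases in 8 of the 24 coding members. Of the 9 members with a stem-loop, Hist1h2ae had it in the same transcript and Hist1h2bp in a second, spliced one. The replication-type genes with this signal and, for comparison, the spermatid gene Hils1 end as follows, with AATAAA in capitals:
Hist1h2bp (spliced transcript): acattataaaAATAAAggtttcaatc
Hist1h4a: aaattgagtaAATAAAccttgagtgc
Hist1h2ae: cagcttctccAATAAAtgggtcaatt
Hils1: accaagtgggAATAAAacgcaactta

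These signals lie at chr13:21789191-21789196 and chr11:94968433-94968438 on the plus strand and at chr13:23760715-23760720 and chr13:23570539-23570544 on the minus strand. Hist1h4a, a gene of the same cluster on chromosome 13 as Hist1h3a, had no match to the stem-loop letters. A match is a description of the annotated transcript and does not say which end the captured RNA had.

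The authors made the clusters from the cells of both libraries together. Over these clusters, the members followed each other in a sequence that was nearly the same in WT and KO. Most genes with at least 500 UMIs kept their highest cluster as well. Of the 19 members with at least 500 UMIs, 18 had their highest level in the same cluster in both libraries, against 82.8% of the 4603 genes of that depth. The exception was H3f3a, which was highest in Sd4 in WT and in Sd3 in KO, with overlapping intervals from Sd2 to Sd4. Their range was wide: 17 of the 19 were at least 20-fold higher in their highest than in their lowest cluster in both libraries, against 65.0% of these genes. Pearson's r between the log2(CPM + 1) courses of WT and KO over the 13 clusters was 0.95 (Hist1h3a) to 0.997 (H2afb1). The 13 points of a course share their libraries, so r is given as a description.

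**Figure D1:**
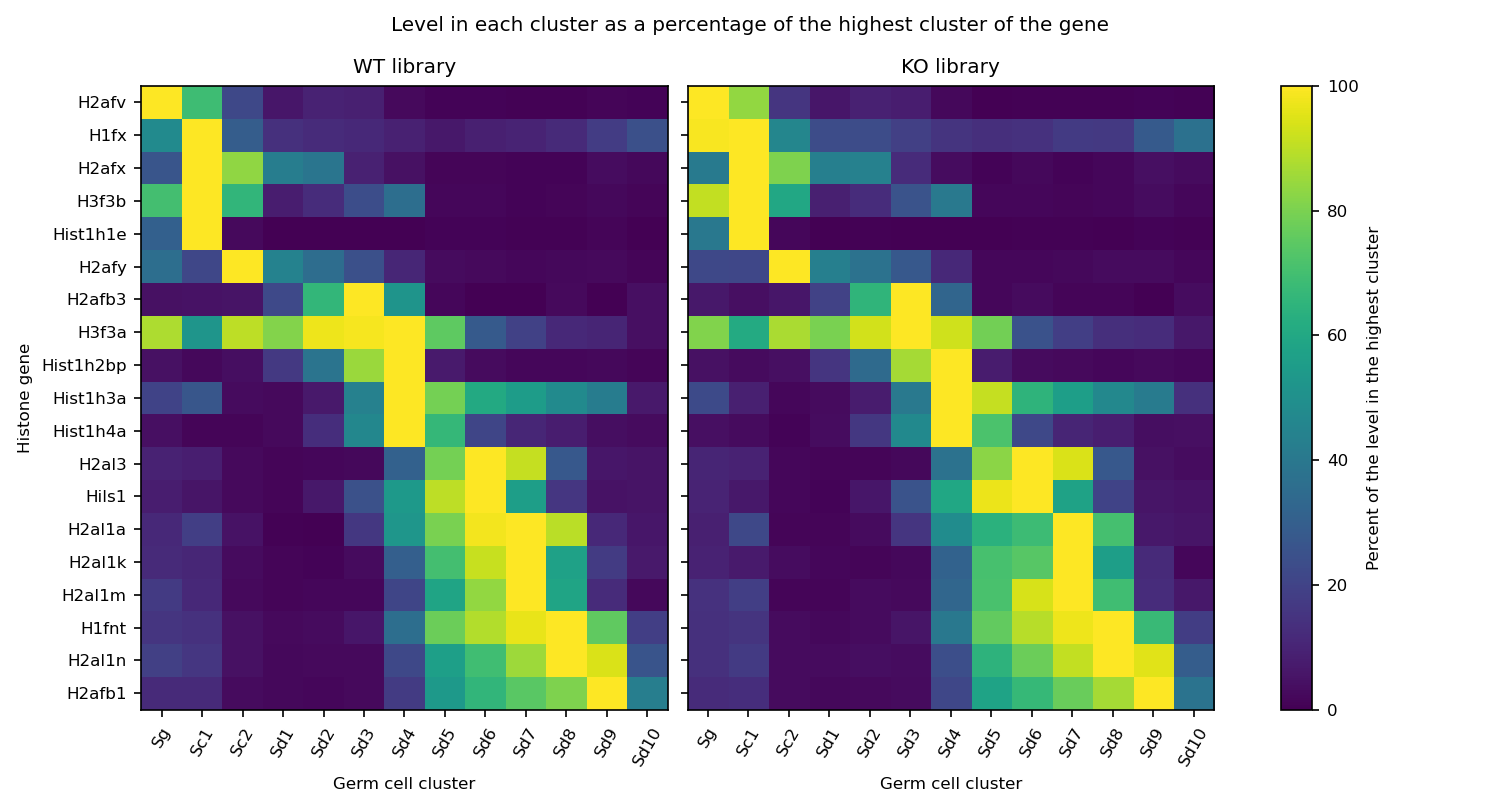
Level of each of the 19 histone genes with at least 500 UMIs in each of the 13 clusters (x axis) as a percentage of the gene's own highest cluster, in the WT and the KO library. Genes are ordered by the cluster in which they were highest in WT, from H2afv in Sg to H2afb1 in Sd9, and the 2 panels show nearly the same sequence.

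Replication-type genes fell into an early and a late set. Hist1h1e, a linker histone gene of S phase, was highest in Sc1 with 131 CPM (95% interval 110.0 to 155) in WT and 162 (134 to 193) in KO. It stood at 40.2 and 64.9 CPM in Sg and at 3.09 and 2.67 in Sc2. From Sd1 to Sd10 it did not exceed 1.91 CPM in either library. Hist1h4c, a core histone H4 gene with 237 UMIs in all, was also highest in Sc1, at 35.3 CPM in WT and 34.7 in KO. Hist1h2bj, an H2B gene with 105 UMIs, was highest in Sg, at 19.5 and 18.0 CPM, and its intervals of Sg and Sc1 overlapped in both libraries. The remaining 3 members of this set, with 18 to 85 UMIs, were also highest in Sg or Sc1 in both libraries. All 6 have the stem-loop letters. The S phase genes that could be placed (Mcm5, Mcm7, Top2a, Rrm1 and Ccne2, 5 of 20 listed) were highest in Sg or Sc1 in both libraries too.

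The late set was Hist1h2bp, Hist1h4a and Hist1h3a, which were highest in Sd4, a cluster of round spermatids. None of them could be tied to a single row without the assumption about rows that lack a symbol. Hist1h2bp encodes an H2B and lies at chr13:21787461-21789213. It rose from 25.3 CPM in Sc2_WT to 112 in Sd1, 256 in Sd2, 565 in Sd3 and 666 (642 to 691) in Sd4, and stood at 48.9 (41.0 to 57.9) in Sd5. In KO the same clusters gave 25.9, 99.9, 224, 561, 648 and 50.2 CPM. The rise was thus gradual and the fall took place between neighbouring clusters, from 7.70 to 0.464 UMIs per WT cell and from 7.46 to 0.460 per KO cell. Hist1h4a, an H4 gene at chr13:23760692-23761230, reached 249 (234 to 264) CPM in Sd4_WT and 216 (205 to 228) in Sd4_KO. It fell more slowly, to 165 and 155 in Sd5 and 51.7 and 47.2 in Sd6. Its neighbour Hist1h3a, an H3 gene at chr13:23761853-23762386, had 69.2 (61.6 to 77.4) CPM in Sd4_WT and 61.5 (55.4 to 68.1) in Sd4_KO. It still had 29.0 CPM in Sd9_WT and 25.5 in Sd9_KO. For Hist1h3a the intervals of Sd4 and Sd5 overlapped in both libraries. Hist1h3a is the member of the late set with the stem-loop and without a poly(A) signal. Within the last 500 bases of its transcript, 34.9% of the stretches of 100 bases also occur in other H3 genes. For Hist1h2bp and Hist1h4a this share is 45.1% and 34.9%, with 190 and 158 bases at the 3′ end outside any shared stretch. For Hist1h1e it is 99.0%, since transcripts of Hist1h2be and Gm11398 overlap it on the same strand. For the other genes of the early set it is 40.1% (Hist1h2bj), 37.7% (Hist1h3c), 46.4% (Hist1h2ae), 52.4% (Hist1h2ab) and 0.0% (Hist1h4c). Apart from Hist1h4c, the levels of the replication-type genes are therefore uncertain where reads could be split between copies.

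H3f3b and H3f3a encode the same replacement histone H3, and their courses differed. H3f3b (chr11:116021912-116027962) was highest in Sc1, with 5958 CPM (95% interval 5809 to 6109) in WT and 5246 (5083 to 5412) in KO. In WT it stood at 4178 CPM in Sg, 3925 in Sc2 and 469 in Sd1, rose again to 762, 1405 and 2158 in Sd2, Sd3 and Sd4, and dropped to 116 in Sd5. The KO values of these 7 clusters were 4756, 3152, 459, 667, 1332, 2119.8 and 88.4 CPM. The course thus had a first maximum in spermatogonia and spermatocytes, a trough in Sd1 and a second maximum in Sd4. Between Sd4 and Sd5, H3f3b fell 18.6-fold in WT and 24.0-fold in KO, from 24.9 to 1.10 UMIs per WT cell and from 24.4 to 0.811 per KO cell. A fall of at least 10-fold at this step in both libraries was seen in 3.89% of the 4603 genes and in 3 of the 19 members, which were H3f3b, Hist1h2bp and H2afb3. For this count, levels under 3 UMIs were set to 3 UMIs. H2afb3 went from 90 UMIs in Sd4_WT and 64 in Sd4_KO to 2 in Sd5 of each library. The median UMIs per cell in Sd4 and Sd5 were 8976 and 7633 in WT and 8911 and 7426 in KO. H3f3a (chr1:180800832-180813943) ranged from 141 to 271 CPM over Sg to Sd5 in WT and from 152 to 249 in KO. It then declined to 76.3 and 62.4 in Sd6 and to 11.2 (6.11 to 18.8) and 16.5 in Sd10. Per H3f3a UMI there were 42.2 (35.8 to 50.2) H3f3b UMIs in Sc1_WT, 2.12 (1.98 to 2.28) in Sd1, 7.97 (7.50 to 8.47) in Sd4 and 0.569 (0.494 to 0.654) in Sd5, with exact binomial intervals in brackets. In KO these were 34.5 (28.6 to 41.9), 2.30 (2.19 to 2.42), 9.15 (8.66 to 9.68) and 0.451 (0.391 to 0.520). From Sd6 on, H3f3b regained the larger share, with 1.28 (1.07 to 1.54) in Sd6_WT and 8.29 (4.74 to 15.6) in Sd10_WT, and 1.34 (1.10 to 1.62) and 5.59 (3.75 to 8.61) in KO. In Sd10 these ratios rested on 14 and 29 H3f3a UMIs. Sd5 was the single cluster with fewer H3f3b than H3f3a UMIs, in both libraries. How well the mRNA of each gene was captured is not known, so the change of this ratio and not its size can be read. The genes whose WT course was most like that of H3f3b, by Pearson's r of log2(CPM + 1) over 13 clusters among 4603 genes, were Zc3h8 (0.979 in WT, 0.957 in KO), Rad18 (0.977 in WT, 0.963 in KO), Pum3 (0.97 in WT, 0.95 in KO), Dnttip2 (0.967 in WT, 0.966 in KO) and Wdr75 (0.967 in WT, 0.967 in KO).

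**Figure D2:**
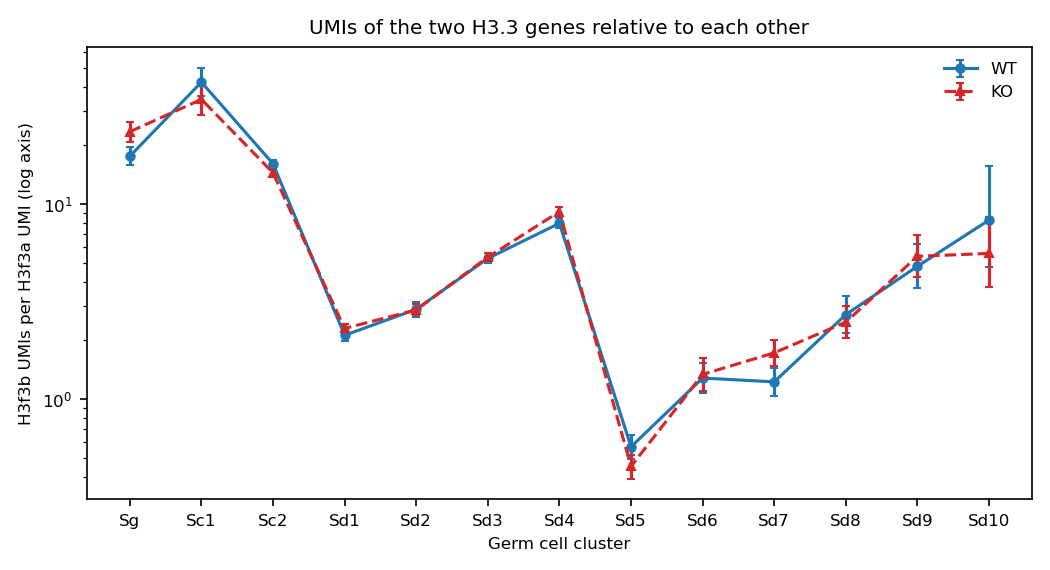
Number of H3f3b UMIs per H3f3a UMI (log axis) in the 13 clusters for WT (circles, solid line) and KO (triangles, dashed line). Bars are exact binomial 95% intervals for counting error. The ratio was highest in Sc1, rose from Sd1 to Sd4, was below 1 in Sd5 and was higher again in Sd10 in both libraries.

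The replacement H2A genes were highest before the spermatid stages, each in a different cluster. H2afv, which encodes an H2A.Z, was highest in Sg, with 505 (471 to 540.4) CPM in WT and 512 (476 to 551) in KO. In KO this interval overlapped that of Sc1. It fell to 30.8 and 31.5 in Sd1. H2afx, the H2A that is phosphorylated around DNA breaks, had 202 (175 to 231) and 180.2 (151 to 213) CPM in Sc1. In Sc2 it had 168 (159 to 178) and 145 (139 to 152), and the intervals of Sc1 and Sc2 overlapped in both libraries. H2afy, which encodes macroH2A, was highest in Sc2, with 224 (213 to 235) and 189 (181 to 197) CPM, against 48.0 and 40.1 in Sc1 and 98.9 and 81.7 in Sd1. From Sd5 on, none of these 3 genes exceeded 7.45 CPM in a cluster of either library. H1fx, a replacement linker histone gene, was highest in Sc1 and, of the 19 members with at least 500 UMIs, one of the 2 that ranged less than 20-fold. It had 420.2 (381 to 462) CPM in Sc1_WT and 226 (193 to 262) in Sc1_KO, where the interval overlapped that of Sg (223 (199 to 249)). Its minimum was in Sd5 (27.7 and 30.2), after which it rose to 102 (85.2 to 121) in Sd10_WT and 84.6 (71.5 to 99.3) in Sd10_KO. H1fx is overlapped on the same strand by Gm47286, and H2afx, H2afy and H3f3a by genes on the other strand. Whether the counting used strand is not given in the sources used here.

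**Figure D3:**
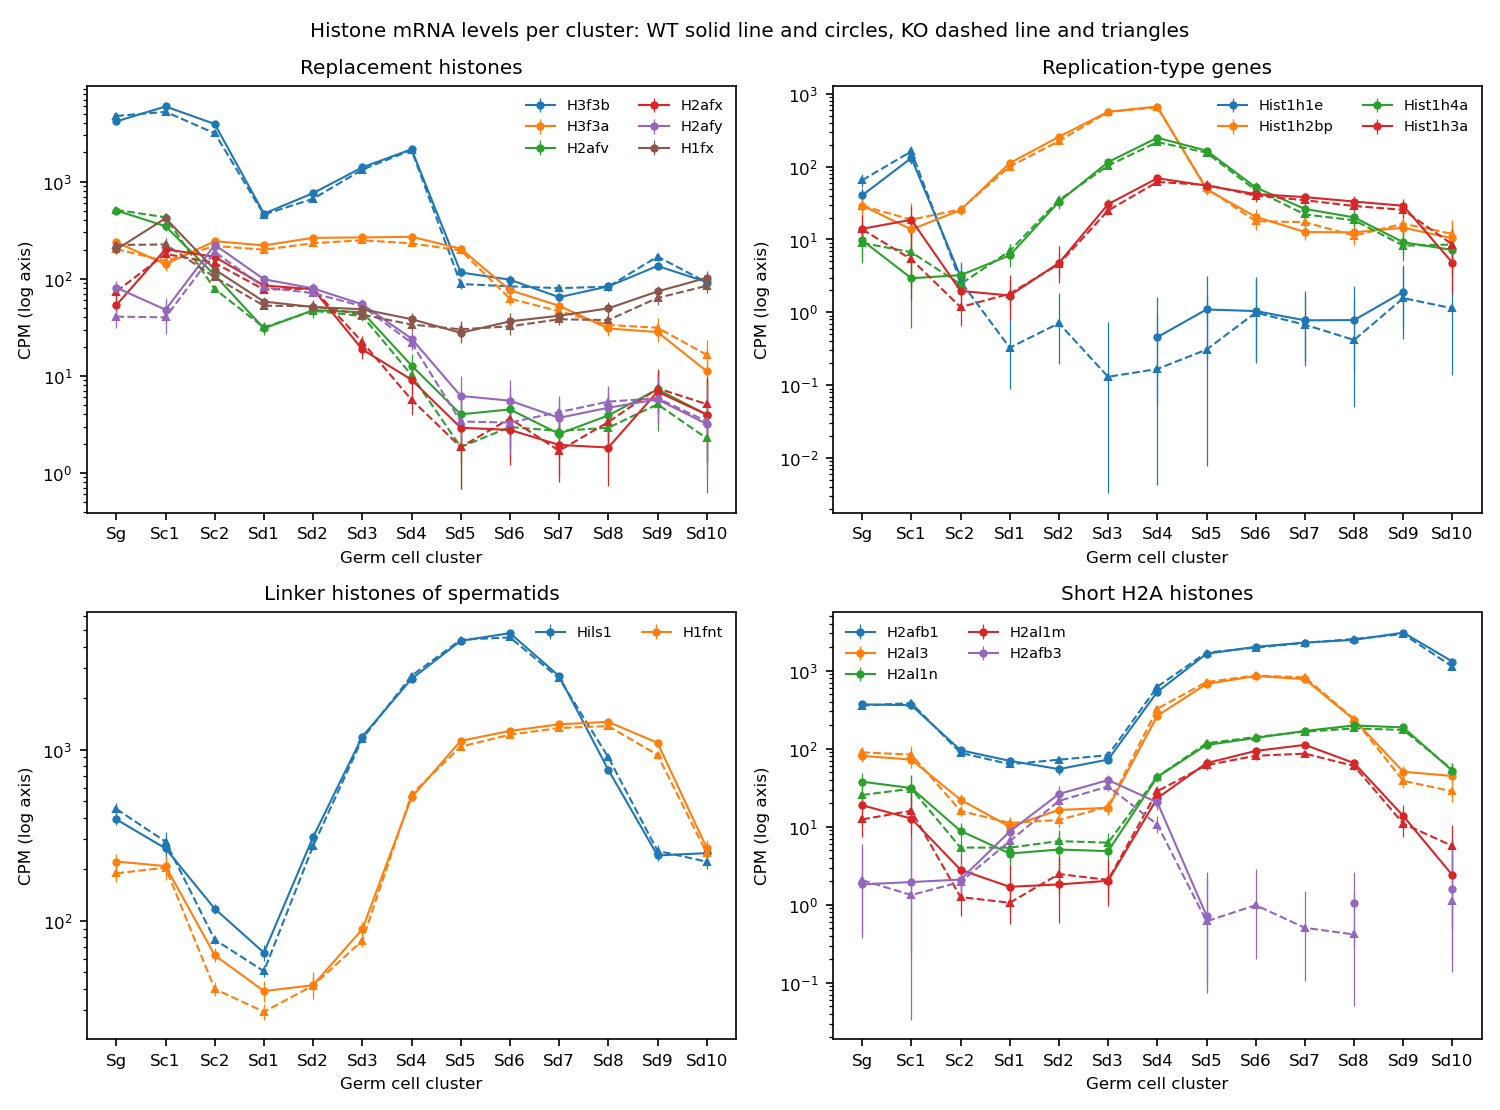
CPM (log axis) of histone genes in the 13 clusters, with exact Poisson 95% intervals, for replacement histones, replication-type genes, spermatid linker histones and short H2A histones (4 panels). Clusters with 0 UMIs have no point. WT (solid, circles) and KO (dashed, triangles) ran close together, and the fall of H3f3b and Hist1h2bp from Sd4 to Sd5 stands beside the rise of Hils1, H1fnt and the short H2A genes other than H2afb3.

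The spermatid linker histones rose from Sd1 on and were highest after Sd4, the highest cluster of Hist1h2bp and Hist1h4a. Hils1 (chr11:94967593-94968456), a linker histone of spermatids, had 65.1 CPM in Sd1_WT, 309 in Sd2, 1192 in Sd3, 2588 in Sd4, 4322 in Sd5 and 4794 (4715 to 4875) in Sd6, its highest cluster. It then fell to 2688, 761 and 241 in Sd7, Sd8 and Sd9. In KO the rise went from 50.6 in Sd1 to 4525 (4449.5 to 4601) in Sd6, and the fall to 256 in Sd9, and the intervals of Sd5 and Sd6 overlapped in KO. Hils1 is overlapped on the other strand by Sgca. H1fnt (chr15:98255986-98257293), which encodes the spermatid linker histone H1T2, rose later and stayed longer. It had 89.2 CPM in Sd3_WT, 526 in Sd4, 1125 in Sd5, 1406 (1374 to 1439) in Sd7, 1452 (1414 to 1490.5) in Sd8, 1096 in Sd9 and 267 in Sd10. In KO, Sd7 had 1337 (1308 to 1367) and Sd8 1372 (1339 to 1406). The intervals of Sd7 and Sd8 overlapped in both libraries. At Sd9, H1fnt stood at 75.5% of its highest level in WT and 67.9% in KO, whereas Hils1 stood at 5.02% and 5.66%. The genes whose WT course was most like that of Hils1 were Tmco2 (0.996 in WT, 0.996 in KO), Aqp7 (0.987 in WT, 0.988 in KO), Cypt12 (0.986 in WT, 0.988 in KO), Frat1 (0.983 in WT, 0.969 in KO) and Spag4 (0.982 in WT, 0.97 in KO). The testis linker histone gene Hist1h1t and the testis H2B gene Hist1h2ba each had 24 possible rows and are not analysed here.

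All 7 short H2A members lie on chromosome X, on which 2.36% of the genes with at least 500 UMIs lie. Short H2A variants lack part of the H2A tail and make less stable nucleosomes. Of the 7, 6 were highest between Sd6 and Sd9, and H2afb3 was highest in Sd3. Among the 107 X-linked genes with at least 500 UMIs, 63.6% were highest between Sd4 and Sd10 in both libraries, against 32.6% of all 4603. H2afb1 (chrX:117014757-117015104), of the H2A.B type, was the latest member. It had 72.6 CPM in Sd3_WT, 534 in Sd4, 1646 in Sd5, 2477 in Sd8, 3068 (3002 to 3136) in Sd9 and 1307 (1244 to 1372) in Sd10. In KO it had 622 in Sd4, 2937 (2871 to 3004) in Sd9 and 1123 (1074 to 1174) in Sd10. The level in Sd10 was thus 42.6% of the highest in WT and 38.2% in KO. H2afb3 (chrX:120312748-120313095), a second gene of the H2A.B type, had the opposite timing. It had 39.6 (34.3 to 45.6) CPM in Sd3_WT and 32.9 (28.9 to 37.2) in Sd3_KO, 20.5 and 10.7 in Sd4, and 2 UMIs in Sd5 of each library. Over Sd5 to Sd10 together it had 8 UMIs in WT and 12 in KO. The annotated transcripts of H2afb1 and H2afb3 share 15.7% of their stretches of 100 bases, so part of their reads could be split between them. H2afb3 is also overlapped on the other strand by Pcdh11x, and H2al1m on the same strand by Xk. H2al3 (chrX:9849703-9850255) was highest in Sd6, with 853 (819.8 to 888) CPM in WT and 867 (834 to 901) in KO, where the interval overlapped that of Sd7. It fell to 235 and 240.4 in Sd8 and 50.8 and 38.8 in Sd9. H2al1n (chrX:14211148-14211661) was highest in Sd8, with 198 (185 to 213) and 182 (170.1 to 194) CPM, and still had 187 and 174 in Sd9. The intervals of Sd8 and Sd9 overlapped in both libraries. H2al1m, H2al1a and H2al1k were highest in Sd7 in both libraries. H2al1m had 112 (103 to 122) CPM in Sd7_WT and 86.5 (79.2 to 94.3) in Sd7_KO, H2al1k 45.9 (40.2 to 52.1) and 36.1 (31.4 to 41.2), and H2al1a 26.4 (22.2 to 31.3) and 30.8 (26.5 to 35.6). The intervals of Sd6 and Sd7 overlapped for H2al1m and H2al1k in both libraries and for H2al1a in WT. Of their last stretches of 100 bases, 74.3%, 79.6% and 91.0% occur in other H2al1 genes, so single levels are uncertain. They fell earlier than H2al1n. In Sd9_WT, H2al1m stood at 12.3% of its highest level, H2al1a at 11.5%, H2al1k at 17.5% and H2al1n at 94.4%. In Sd9_KO the shares were 12.7%, 6.36%, 12.0% and 95.6%. The processed pseudogene H3f3a-ps2 had 255 UMIs and was highest in Sd5, at 23.4 CPM in WT and 15.7 in KO. Of its stretches of 100 bases, 68.9% occur in H3f3a or its other copies.

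Spermatid histones were also counted in Sg and Sc1, where they were not read as expression. Hils1 stood at 8.15% of its highest level in Sg_WT and 9.95% in Sg_KO, H1fnt at 15.3% and 13.8% and H2afb1 at 12.1% and 12.1%. The protamine gene Prm1, which spermatogonia should lack, stood at 13.5% in Sg_WT and 13.04% in Sg_KO. In Sd1 these shares were lower, with 1.36% for Hils1, 2.67% for H1fnt, 2.28% for H2afb1 and 2.48% for Prm1 in WT. A Hils1 UMI was found in 48.9% of the Sg_WT cells (exact binomial 95% interval 42.1 to 55.7) and 31.2% of the Sd1_WT cells (27.2 to 35.4). At 3000 UMIs per cell the shares were 35.2% and 15.8%, against 100% in Sd6_WT. The median UMIs per cell of Sg, Sd1 and Sd6 in WT were 6133, 7196 and 5672. RNA released by other cells gives such counts, and its part was not tested.

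Genes that supply or remove histones were placed beside this course. Of 34 listed genes for histone supply and histone chaperones, 16 could be placed. In CPM, the largest falls at the step at which H3f3b and Hist1h2bp fell were those of Nasp, a chaperone of H3, H4 and linker histones, and of the histone chaperone gene Npm1. Nasp had 4229 CPM in Sd1_WT, 956 in Sd4 and 68.3 in Sd5, and in KO 4541, 977 and 69.6. Npm1 went from 339 to 51.8 CPM between Sd4 and Sd5 in WT and from 335 to 39.1 in KO. Asf1a, Daxx and Hat1 also fell, Asf1a from 42.0 to 4.75 CPM in WT. Some other genes of the list hardly moved or rose, with Chaf1a at 116 to 99.3, Npm3 at 68.3 to 61.0, Set at 48.4 to 47.5, Ubn2 at 41.8 to 39.4 and Ssrp1 at 35.8 to 51.5 CPM in WT. Npat, the activator of the replication-dependent genes, was highest in Sc1 (251 and 244 CPM), as were Hist1h1e and Hist1h4c. Hat1, which acetylates new H4, was highest there too (371 and 356). Of 24 listed genes for histone removal and nuclear condensation, 16 could be placed. Between Sd4 and Sd5 of WT, the protamine and transition protein genes rose, with Prm1 from 13515 to 78806 CPM, Prm2 from 5749 to 27188, Tnp1 from 6206 to 30923 and Tnp2 from 2687 to 16224. In KO, Prm1 went from 16694 to 78173 and Tnp1 from 7052 to 29234. Other genes of this list were lower in Sd5_WT than in Sd4_WT, such as Brdt, a reader of acetylated histones, from 159.6 to 44.5, the deacetylase gene Hdac1 from 110.0 to 10.2 and Psme4 from 412 to 369 CPM. Chd5, a remodeller required for histone eviction, was highest in Sd4 (605 and 621 CPM), with the late replication-type genes, and stood at 562 and 565 in Sd5. The transition protein genes Tnp2 and Tnp1 were highest in Sd7 and Sd8, with the H2al1 genes and H1fnt, and Prm2 in Sd10, after H2afb1.

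The study asked how loss of Tex13a changes mRNA levels in spermatids. Differences are given as log2 ratios of KO to WT CPM, with 1 UMI added over both libraries, for members with at least 10 UMIs in a cluster, and with exact binomial 95% intervals for counting error. Of 235 such pairs of member and cluster, 6 were past 2-fold. The members past 2-fold, with the share of all genes read that were past 2-fold in the same cluster in brackets, were 0 of 21 in Sg (3.99%), 1 of 18 in Sc1 (4.94%), 2 of 20 in Sc2 (3.56%) and 1 of 18 in Sd1 (2.38%). They were 0 of 17 in Sd2 (2.62%), 0 of 19 in Sd3 (1.85%), 0 of 20 in Sd4 (2.14%), 1 of 18 in Sd5 (4.07%) and 0 of 18 in Sd6 (4.23%), and 0 of 18 in Sd7 (4.46%), 0 of 17 in Sd8 (4.07%), 0 of 17 in Sd9 (7.22%) and 1 of 14 in Sd10 (9.44%). All 6 had under 50 UMIs, and for 3 of them (H2al1a, H2afv and H2al1m in Sd10) the interval included 0. The log2 ratios were those of Hist1h3a in Sc1 (-1.70), H2al1a in Sc2 (-1.57), H2al1m in Sc2 (-1.13), Hist1h4c in Sd1 (-1.36), H2afv in Sd5 (-1.05) and H2al1m in Sd10 (1.14). Of the 181 pairs with at least 50 UMIs, 0 were past 2-fold. Of all genes with at least 50 UMIs, 0.785% were past 2-fold in Sg, 0.598% in Sc1, 1.0% in Sc2, 0.351% in Sd1, 0.361% in Sd2, 0.205% in Sd3, 0.187% in Sd4, 0.486% in Sd5, 0.549% in Sd6, 0.924% in Sd7, 0.694% in Sd8, 2.24% in Sd9 and 3.27% in Sd10. Among the 235 pairs the interval left out 0 in 64, with 14 higher and 50 lower in KO, of which 11 lower ones were in Sc2. Among all genes read in a cluster, the interval left out 0 on the higher side for 7.39% (Sc1) to 16.5% (Sc2) and on the lower side for 6.02% (Sc1) to 23.2% (Sc2).

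The extreme ratios were taken from the 181 pairs with at least 50 UMIs. The 3 lowest ratios among these pairs were those of H2afy in Sg, -0.99 (95% interval -1.46 to -0.54), from 81.0 CPM in WT and 40.7 in KO, of H2afb3 in Sd4, -0.94 (-1.43 to -0.46), and of H1fx in Sc1, -0.90 (-1.16 to -0.64). Under the 6 or 7 alternatives run for each, all 3 stayed below 0. H1fx in Sc1 reached -1.52 with every cell thinned to 3000 UMIs, and H2afy in Sg -1.37 without the 5% of cells with most UMIs. An H1fx UMI was found in 60% of the thinned Sc1_WT cells and 31.3% of the thinned Sc1_KO cells. In cells of full depth the shares were 72.3% of 130 and 50.5% of 99 cells. The 3 highest ratios among the pairs with at least 50 UMIs were all in Sg, with 0.69 (0.22 to 1.17) for Hist1h1e, 0.66 (-0.12 to 1.47) for Hist1h2ae and 0.46 (0.04 to 0.89) for H2afx. The interval of Hist1h2ae included 0. Without the 5% of cells with most UMIs, the ratio of Hist1h1e was 0.18. The 5 placed S phase genes had a median of 0.14 in Sg, from -0.03 (-0.35 to 0.28) for Rrm1 to 0.53 (0.26 to 0.81) for Ccne2. Their part in these ratios was not tested.

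In the spermatocyte cluster Sc2, 19 of the 20 members read were lower in KO, with a median of -0.36, against 58.3% lower and a median of -0.05 over all 4945 genes read. Some of these members are spermatid genes whose level in Sc2 was a small share of their highest, near that of Prm1, which was at 3.39% in Sc2_WT and 2.83% in Sc2_KO. Hils1 stood at 2.45% and 1.71% there, H1fnt at 4.33% and 2.91%, and H2al3 at 2.60% and 1.84%, and their counts in Sc2 were not read as expression. In log2 ratios, Hils1 was at -0.60 (-0.73 to -0.47), H1fnt at -0.65 (-0.84 to -0.47), H2al1n at -0.70 (-1.22 to -0.19) and H2al3 at -0.48 (-0.79 to -0.17). Members of the early stages were lower too, with H3f3b at -0.32 (-0.34 to -0.29), H2afv at -0.48 (-0.61 to -0.34), H2afx at -0.21 (-0.32 to -0.10) and H2afy at -0.25 (-0.34 to -0.15). In CPM, H3f3b had 3925 (3879 to 3971) in Sc2_WT and 3152 (3121 to 3183) in Sc2_KO, H2afv 109 (101 to 117) and 78.3 (73.5 to 83.3), and Hils1 117 (109.6 to 126) and 77.5 (72.7 to 82.5). Other spermatid genes went either way in Sc2_KO. Of the 8 listed elongating spermatid genes, 4 were higher and 4 lower in KO, with a median of -0.06. Among these, Tnp1 was at -0.54 (-0.58 to -0.51), Prm1 at -0.26 (-0.27 to -0.24) and Prm2 at 0.10 (0.07 to 0.13). All 3 round spermatid genes that could be placed were lower, with a median of -0.64, and Acrv1 was at -0.63 (-1.01 to -0.26). All 5 spermatocyte markers that could be placed were lower in Sc2_KO too, with a median of -0.30. Sycp1 was at -0.45 (-0.49 to -0.41), Piwil1 at -0.27 (-0.33 to -0.21), Ly6k at -0.30 (-0.36 to -0.23), Prss50 at -1.51 (-2.30 to -0.79) and Sycp3 at -0.02 (-0.06 to 0.02). Their part in the members' ratios was not tested.

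In the other 12 clusters the median over the members lay between -0.15 and 0.07, and the median over all genes between -0.02 and 0.09. The member median was above that of all genes in Sc1 and Sd10 and below it in the rest. In Sd9 it was -0.15, against 0.09 over all genes, with 64.7% of the members and 39.2% of all genes lower in KO. In Sd6 it was -0.15 against 0.02, with 77.8% and 47.4% lower. At their highest clusters, some of the late members were near 0 and others were not. Hils1 was at -0.08 (-0.12 to -0.05) in Sd6, H1fnt at -0.08 (-0.13 to -0.03) in Sd8, H2afb1 at -0.06 (-0.11 to -0.02) in Sd9, H2al3 at 0.02 (-0.06 to 0.10) in Sd6 and Hist1h2bp at -0.04 (-0.11 to 0.03) in Sd4. The 7 short H2A members summed to 3418 (3367 to 3468) CPM in Sd7_WT and 3408 (3361 to 3456) in Sd7_KO, and the testis linker histones Hils1 and H1fnt to 6080.0 (5990.3 to 6171) in Sd6_WT and 5748 (5663 to 5834) in Sd6_KO. Further from 0 at their highest cluster, Sd7, were H2al1k at -0.35 (-0.62 to -0.07), H2al1m at -0.37 (-0.55 to -0.20) and H2al1a at 0.22 (-0.11 to 0.55). Hist1h4a was also lower in KO at its highest cluster. It had 249 (234 to 264) CPM in Sd4_WT and 216 (205 to 228) in Sd4_KO.

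In Sd10, the latest cluster, the direction depended on the minimum count. Of the 14 members read there, 8 were higher and 6 lower in KO, and 1 was past 2-fold, where 9.44% of all genes were. The median was 0.07, against 0.04 over all 3674 genes. Among the 7 members with at least 50 UMIs in Sd10, 6 were lower in KO, against 46.8% of all genes of that depth, and the median was -0.17. The lowest ratios were -0.65 (-1.24 to -0.08) for H2al3, -0.27 (-0.62 to 0.08) for H1fx and -0.22 (-0.31 to -0.12) for H2afb1. The highest were 0.05 (-0.42 to 0.53) for H2al1n, -0.01 (-0.36 to 0.35) for H3f3b and -0.10 (-0.31 to 0.11) for H1fnt. Of the 15 listed genes for histone removal and nuclear condensation read in the same cluster, 7 were higher and 8 lower in KO. Their median was -0.03. Among the lower ones, the transition protein gene Tnp1 was at -0.55 (-0.63 to -0.47) and Prm1 at -0.29 (-0.31 to -0.27). The ratio of H2al3 in Sd10 rested on 56 WT and 50 KO UMIs, and without the 5% of cells with most UMIs it was 0.15. That of H2afb1 was -0.06 when each cell counted equally.

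**Figure D4:**
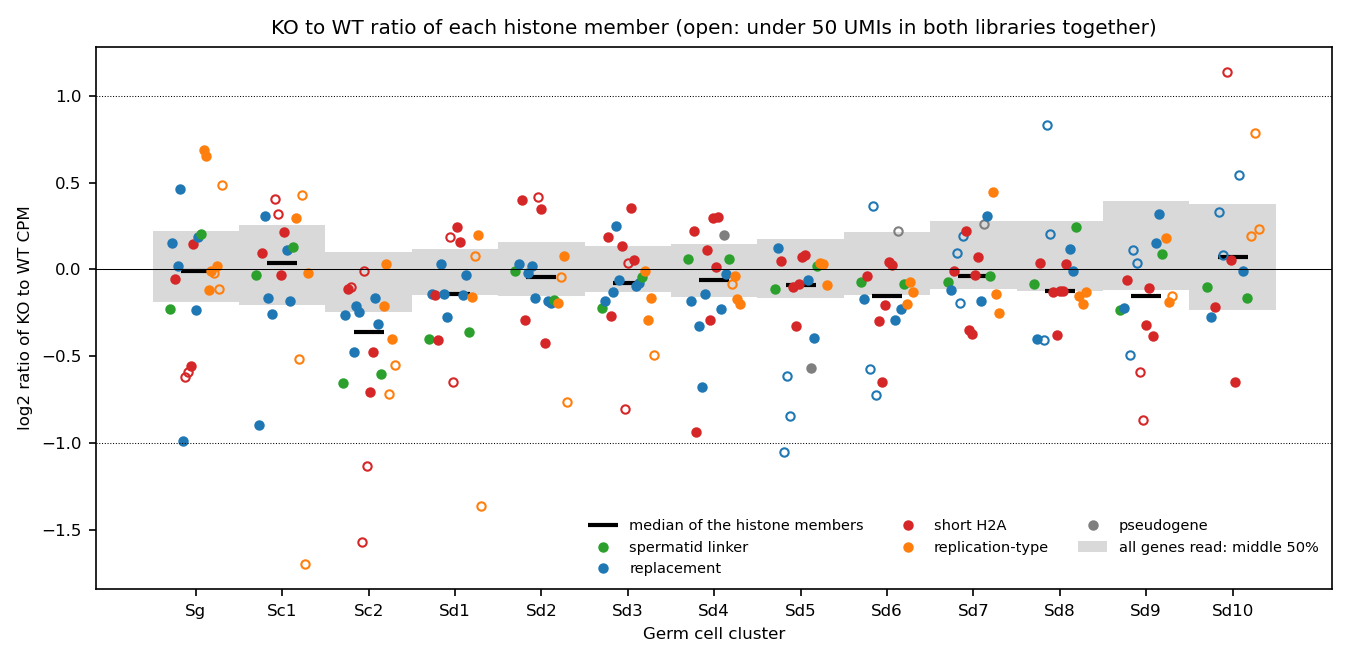
log2 ratio of KO to WT CPM of each histone member with at least 10 UMIs in a cluster, over the 13 clusters. Colours give the histone class, open circles have under 50 UMIs, black bars are the medians of the members, and grey bars span the middle 50% of all genes read. Dotted lines mark 2-fold. In Sc2 the points lie below 0 except 1, and in the other clusters they lie on both sides of it.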

How the data were processed

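Single-cell RNA-seq of 1 WT and 1 Tex13a-KO testis suspension was analysed from the deposited UMI count matrix and the deposited cell table, which gives the library, the cluster name, the counts per cell and the percent of mitochondrial UMIs. Per the submitters' processing notes and the study's methods, the authors checked reads with FastQC 0.11.7, trimmed them with fastp, aligned them to mm10 with STAR 2.5.3a, assigned them to genes with featureCounts 1.6.2 and made the counts by grouping reads per cell barcode, UMI and gene. Cells were filtered, integrated and clustered by the authors in Seurat 3.2.3. The use of strand and of reads with several matches is not given in the sources used here. All deposited cells were used, with no further filter and no doublet caller. The cells of greatest depth were left out in an alternative. The libraries shared 0 barcodes.

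The deposited list of gene symbols has 25065 lines and the matrix 26758 rows. Symbols were tied to rows by their order, anchored on the 30 mitochondrial genes, whose summed counts gave the deposited percent of mitochondrial UMIs in 12408 of 12408 cells, against 662 when line and row numbers were taken as equal. Rows without a symbol were assumed to be among those seen in fewer than 5 cells. Then 5476 symbols, with 86.9% of the UMIs, had 1 possible row, and 2648 symbols, with 58.4%, had 1 when any row may lack a symbol. The other 65 of the 90 histone symbols had several possible rows and are not analysed here. Their sums are thus sums over part of each class.

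UMIs were summed per cluster and library. Levels carry exact Poisson intervals, and ratios and shares exact binomial (Clopper-Pearson) intervals at 95%, which cover counting error only. The interval method was tested on simulated Poisson counts without further spread between cells or libraries. That test thus cannot show whether the intervals cover such spread. Members with at least 500 UMIs were named with values, those with 100 to 499 UMIs by total and highest cluster, and the others by counts. For KO against WT, the 3 highest and 3 lowest ratios with at least 50 UMIs, over all clusters and in Sd10, were named. The genes of the lists, also those in Sd10, and further members given beside them in Sc2 and at their highest clusters were picked after their values were seen. The members and lists were chosen with earlier results of these data known. Alternatives were totals without mitochondrial genes, equal weight for each cell, thinning to 3000 UMIs, leaving out the 5% of cells with most UMIs, centring on the median gene, a minimum of 50 UMIs or none, a prior of 10 UMIs and the stricter match of symbols. Python 3.11.15, NumPy 2.4.6, SciPy 1.17.1, pandas 2.3.3 and Matplotlib 3.10.9 were used.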

Additional observations from a re-analysis of the deposited data

Results flagged for a closer look

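For 3 histone genes the KO to WT ratio pointed in opposite directions in different clusters, by at least 0.3 on the log2 scale either way with intervals that left out 0. The difference between the clusters was not tested, and each ratio compares 1 library per genotype. H2al3 was higher in KO in Sd4, with a log2 ratio of 0.30, and lower in Sc2 (-0.48), Sd9 (-0.39) and Sd10 (-0.65). The H2al3 counts in Sc2 were not read as expression. Its ratio in Sd10 rested on 56 WT and 50 KO UMIs and turned positive when the cells with most UMIs were left out. Its interval in Sd9 ran from -0.78 to -0.001. The opposite direction of H2al3 is thus uncertain. H3f3b was higher in Sd7 (0.31) and Sd9 (0.32) and lower in Sc2 (-0.32) and Sd5 (-0.39). H2afv was higher in Sc1 (0.31) and lower in Sc2 (-0.48). Each of the 3 has a negative value in Sc2, where 19 of 20 members were lower in KO.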

How the results depend on the processing

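No paired analysis was possible because each genotype has 1 library. Totals without mitochondrial genes and a prior of 10 UMIs moved no class level or class ratio beyond its counting interval. The member median stayed below 0 in all 9 alternatives in Sc2 (from -0.40 to -0.29), Sd1, Sd3, Sd6, Sd7 and Sd9. It changed sign among them in Sg, Sc1, Sd2, Sd4, Sd5, Sd8 and Sd10, where it ran from -0.17 with a minimum of 50 UMIs to 0.15. With the stricter match of symbols, Hist1h4c was the single replication core gene left in Sd4, at 0.685 CPM in WT and 0.835 in KO, with a reversed log2 ratio of 0.25. The short H2A sum in Sd7 was then 2456 in WT and 2436 in KO. Thinning to 3000 UMIs, which also gives each cell the same weight, gave a replication core level of 898 CPM in Sd4_KO with a ratio of -0.17, a replication linker level of 108 in Sc1_WT, a replacement core level of 6340.1 in Sc1_KO with a ratio of -0.077, and for the replacement linker gene H1fx 474 in Sc1_WT, 165 in Sc1_KO and a ratio of -1.52. It gave ratios of -0.12 in Sd6 and 0.032 in Sd10 for the testis linker histones and of -0.058 in Sd10 for the short H2A histones. The mean of single-cell CPM gave 109 for the replication linker gene in Sc1_WT, 188 for H1fx in Sc1_KO and -0.039 for the short H2A histones in Sd10. Without the 5% of cells with most UMIs, the latter ratio was -0.12 and that of H2al3 in Sd10 reversed to 0.15. Centring gave -0.051 for the short H2A histones in Sd7. The causes were not tested. With 1 library per genotype, depth limits only the counting error, and members under 50 UMIs in a cluster had wide intervals.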
